A study of Mus musculus with 8 samples.

Results

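The 8 genes described here encode potassium channels and subunits of the sodium-potassium pump: Kcnn4, Kcnj2, Kcnk6, Kcnk13, Kcna3, Kcnab2, Atp1b1 and Atp1b3. They were chosen by mouse symbol for their part in the potassium balance that nigericin disturbs, and each matched 1 of the 55401 genes of the count table. All 8 were among the 17470 genes with enough counts to be tested, although Atp1b1 held no more than 25 counts in any library. RNA came from bone marrow-derived macrophages (BMDM) of mice in 4 groups of 2 libraries each. The first group was Lyz2-Cre-Mettl3fl/fl macrophages (called KO) kept overnight with LPS at 50 ng/ml, which activates TLR4, and then exposed to 10 µM nigericin for 3 h. The second was Mettl3fl/fl macrophages without Cre (called WT) given the same treatment, the third KO macrophages given PBS and the fourth WT macrophages given PBS. Both Mettl3 alleles were floxed in every group, Cre was driven by the Lyz2 promoter of myeloid cells, and only KO cells carried Cre, so effects of Mettl3 loss and of Cre cannot be told apart. LPS and nigericin were always given together, so their effects cannot be told apart either.

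Cells hold potassium inside and sodium outside through the sodium-potassium pump, in which a catalytic alpha subunit pairs with a beta subunit that the enzyme needs for folding and for reaching the plasma membrane. Potassium channels let the ion flow back out and set the membrane potential. Nigericin exchanges potassium for protons across membranes, and the loss of cell potassium is a known trigger of the NLRP3 inflammasome in macrophages. Mettl3 encodes the catalytic subunit of the enzyme that writes N6-methyladenosine (m6A) on mRNA.

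The libraries held 55032057 to 65487739 counts, and levels are given as CPM, counts relative to the library's total, scaled by TMM composition factors. Mettl3 was at 9.08 and 7.87 CPM in stimulated KO libraries against 28.2 and 23.4 CPM in stimulated WT libraries, and at 5.63 and 6.33 CPM in KO with PBS against 13.6 and 13.3 CPM in WT with PBS. The 7 macrophage markers, among them Adgre1, Csf1r and Cd68, summed to between 9045 and 13630 CPM in every library. Summed levels of other cell types lay at 117 to 339 CPM for 7 fibroblast and stromal markers, 6.51 to 55.8 for 7 B and plasma cell markers, 5.16 to 21.2 for 7 T and NK cell markers, 3.90 to 35.4 for 7 neutrophil markers, 17.2 to 24.0 for 7 erythroid and megakaryocyte markers, 0.796 to 1.52 for 6 dendritic cell markers and 0 to 0.206 for 5 epithelial markers. Whether the paired libraries in a group stem from different mice or dishes is not stated, so the p-values reflect variation among libraries that could be purely technical. In bulk RNA, fewer cells of a type and less RNA per cell cannot be told apart.

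The promoters of 4 members whose mRNA changed in both genotypes are shown first, since Kcnn4, Kcnj2 and Atp1b3 rose and Kcnk13 fell with the same treatment. Each line gives the 250 bases before the transcription start from RefSeq (GRCm38.p6), 5′ to 3′ on the gene's strand, with matches to the NF-kB, AP-1 (TGANTCA) and interferon-stimulated response element (ISRE) motifs in capitals. The windows are chr7:24370013-24370262 (+) for Kcnn4, chr11:111065914-111066163 (+) for Kcnj2, chr9:96364432-96364681 (-) for Atp1b3 and chr12:99964249-99964498 (+) for Kcnk13.
Kcnn4: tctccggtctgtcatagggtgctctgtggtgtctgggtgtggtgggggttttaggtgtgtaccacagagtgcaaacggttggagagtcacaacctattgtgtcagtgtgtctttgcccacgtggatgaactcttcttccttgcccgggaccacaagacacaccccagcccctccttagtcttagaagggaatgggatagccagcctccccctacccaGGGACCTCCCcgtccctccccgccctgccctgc
Kcnj2: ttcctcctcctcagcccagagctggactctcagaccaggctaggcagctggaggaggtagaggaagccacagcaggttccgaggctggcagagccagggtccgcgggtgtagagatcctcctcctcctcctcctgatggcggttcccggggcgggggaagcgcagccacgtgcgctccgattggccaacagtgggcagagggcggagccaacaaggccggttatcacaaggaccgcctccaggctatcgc
Atp1b3: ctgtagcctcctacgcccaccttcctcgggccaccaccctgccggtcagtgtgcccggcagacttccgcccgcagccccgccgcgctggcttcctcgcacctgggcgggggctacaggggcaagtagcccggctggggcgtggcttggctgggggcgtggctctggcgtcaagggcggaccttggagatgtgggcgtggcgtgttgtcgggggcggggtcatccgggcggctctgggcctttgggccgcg
Kcnk13: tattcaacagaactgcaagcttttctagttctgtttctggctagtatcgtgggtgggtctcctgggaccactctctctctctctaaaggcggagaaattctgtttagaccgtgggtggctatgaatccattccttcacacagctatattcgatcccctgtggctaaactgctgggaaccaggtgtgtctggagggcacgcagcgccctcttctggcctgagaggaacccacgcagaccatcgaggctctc

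Both strands of the 7 members with a RefSeq window (Kcnk6 had no entry) were searched, and 1 match was found, to the NF-kB motif in Kcnn4, from base -33 to base -24 counted from the start. Among 32817 promoter windows of the same length, over all genes listed, 7.25% held a match for NF-kB, 6.75% for AP-1 and 2.97% for the ISRE. A match is a description of letters, and windows without one say nothing about binding of the factor. The sequence GGACT, the DNA form of a core in which m6A is often written, occurred 4 times in the longest coding transcript of Kcnn4 (2.01 per kilobase), 7 times in Kcnk6 (1.71 per kilobase), 5 times in Kcnk13 (1.62 per kilobase) and 5 times in Kcnj2 (0.918 per kilobase). It occurred 3 times in Kcnab2 (0.765 per kilobase), once in Atp1b3 (0.502 per kilobase) and in Atp1b1 (0.388 per kilobase), and not at all in Kcna3. The median over 13276 tested coding genes was 1.05 per kilobase. No methylation was measured in these libraries.

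Levels between genes were compared per kilobase of exon, with the exons of all transcripts of a gene joined. This length was 5115 bases for Kcnn4 and 5578 for Kcnab2, against 1990 and 3922 for their longest coding transcripts. For Kcnk13 it was 3112 against 3078, and for Kcnk6 4151 against 4084. The places of Kcnn4 and Kcnab2 among the channel genes therefore depend on the length used. The pump subunit Atp1b3 was the most abundant member in every library, between 169 and 369 CPM per kilobase, and Atp1b1 the least abundant, between 0 and 0.138 CPM per kilobase. Among the channel genes, the order of mean levels in stimulated KO macrophages was Kcnab2 (24.5 ± 3.36 CPM per kilobase, SD, n = 2), Kcnn4 (14.7 ± 0.776), Kcnk6 (12.3 ± 0.339), Kcnk13 (12.2 ± 0.0466), Kcnj2 (9.61 ± 1.26) and Kcna3 (4.24 ± 0.345), and the library values of Kcnk6 and Kcnk13 overlapped. In stimulated WT macrophages it was Kcnab2 (34.2 ± 1.17), Kcnn4 (20.5 ± 0.914), Kcnk13 (14.3 ± 1.34), Kcnk6 (10.7 ± 0.315), Kcnj2 (8.52 ± 1.35) and Kcna3 (3.49 ± 2.41), with no overlap between neighbours. By the joined exon length, the tandem-pore gene Kcnk13 had the highest mean among the channel genes with PBS in both genotypes. It was at 20.4 ± 2.40 CPM per kilobase in KO and 18.6 ± 1.70 in WT. Its library values overlapped those of the next gene, Kcnab2 (19.6 ± 3.43 in KO and 17.7 ± 9.26 in WT). Kcnk6 followed at 15.5 ± 1.63 in KO and 15.9 ± 0.478 in WT, where it overlapped Kcnab2. Kcnn4 came after it at 10.6 ± 0.725 in KO and 8.74 ± 0.103 in WT. By the joined exon length, Kcnn4 thus stood below Kcnk6 and Kcnk13 with PBS and above both after LPS and nigericin. With the longest coding transcripts as lengths, Kcnn4 would stand above both in all 4 groups, and Kcnab2 above Kcnk13 with PBS. By the same lengths, the mean of Kcnn4 would also stand above that of Kcnab2 after stimulation in both genotypes. The switch of Kcnn4, the first place of Kcnk13 with PBS and that of Kcnab2 after stimulation therefore rest on the joined length.

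**Figure D1:**
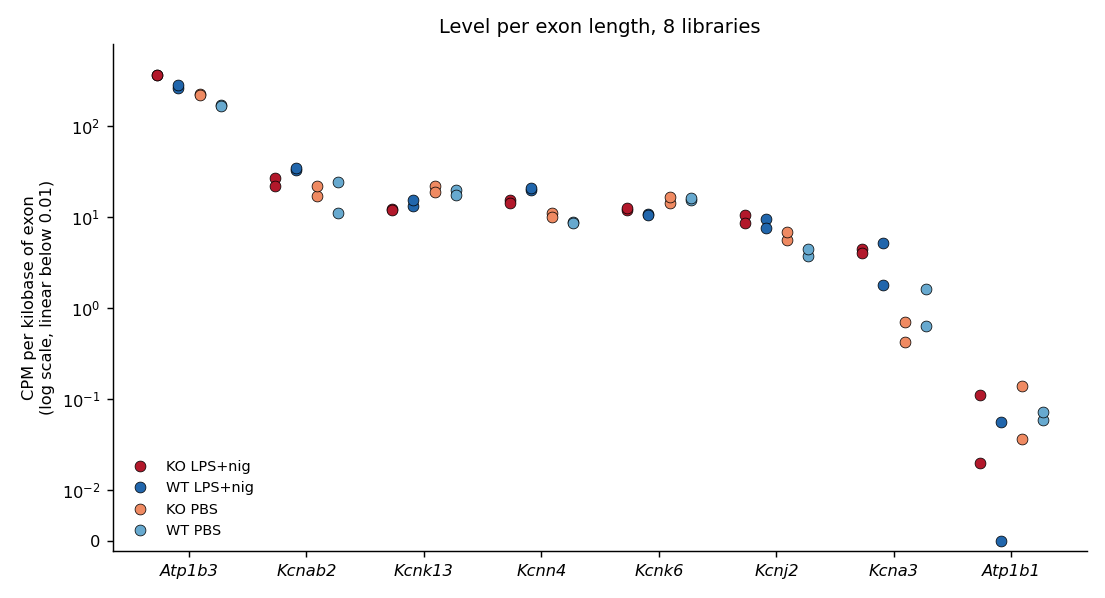
Level of each member in CPM per kilobase of exon (log axis, linear below 0.01), with 1 point per library and the 4 groups side by side. Atp1b3 lies between 169 and 369 in all 8 libraries, 6 channel genes lie in a band below it, and Atp1b1 lies at or below 0.138.

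The first question was which of these genes responded to LPS and nigericin. The pump subunit gene Atp1b3 and the channel genes Kcnn4 and Kcnj2 rose in both genotypes, the tandem-pore channel genes Kcnk13 and Kcnk6 fell in both, and Kcna3 rose in KO. In KO 4 of 8 members rose and 2 fell, where 39.1% of all tested genes were called in either direction (edgeR quasi-likelihood test, p-values adjusted by Benjamini-Hochberg over all tested genes; 20.2% higher and 19% lower). In WT 3 of 8 rose and 2 fell, where 40.5% of all tested genes were called (20.6% higher and 20% lower). The median log2 change over the members was 0.40 in KO and 0.82 in WT, beside -0.03 and -0.01 over all tested genes. The shares called among the members, 6 of 8 in KO and 5 of 8 in WT, rest on 8 genes and were not tested against the background. The members were chosen with earlier results of these data known, so their shares and medians are a description and show no excess over other genes. Scaling by library size alone moved the median of all tested genes to -0.11 in KO and -0.20 in WT and the WT split to 2713 genes higher and 4720 lower (3592 and 3490 with TMM factors), and no member's direction flipped under it in either comparison. Stromal markers moved differently in the genotypes, with 3 of 7 higher after stimulation in KO and 5 of 7 lower in WT, and 2 of 5 tested neutrophil markers were higher in both. B and plasma cell markers summed to 32.7 to 35.9 CPM in stimulated KO against 49.1 to 55.8 CPM in KO with PBS (1 of 6 tested lower, 0 higher) and to 6.51 to 8.14 CPM in stimulated WT against 52.0 to 53.5 CPM in WT with PBS (2 lower, 2 higher). The mitochondrial share of counts was 1.84 to 2.87% in the stimulated libraries and 2.91 to 3.36% in the PBS libraries, with no overlap. The part of these markers and of the mitochondrial share in the stimulation changes was not tested.

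Atp1b3, which encodes the beta-3 subunit of the pump (chr9:96332655-96364442, minus strand, GRCm38), was at 865 and 881 CPM in stimulated KO libraries against 545 and 530 CPM in KO libraries with PBS. It was at 625 and 685 CPM in stimulated WT libraries against 408 and 403 CPM in WT libraries with PBS. Every stimulated library of a genotype lay above its PBS libraries. The log2 change was 0.70 ± 0.06 in KO (SE, n = 2 per group, edgeR adjusted p = 1.90e-04) and 0.69 ± 0.06 in WT (adjusted p = 1.95e-04), a 1.62-fold rise in each genotype, and both calls held in all 8 fits that left out 1 library.

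Atp1b1, which encodes the beta-1 subunit used by many epithelia (chr1:164437109-164458355, minus strand), had 19 and 4 counts in stimulated KO libraries, 0 and 10 in stimulated WT libraries, 25 and 7 in KO with PBS and 12 and 15 in WT with PBS. At this depth no difference was detectable. Atp1b1 overlaps Nme7 on the opposite strand, which had 451 to 752 counts, and as the use of strand is not stated, reads of the overlap cannot be told apart. Per exon length, Atp1b1 made up 0.0139 ± 0.0139% of the summed level of both beta subunits in the 4 stimulated libraries and 0.0388 ± 0.0183% in the 4 PBS libraries (SD). The difference of -0.0249 percentage points had p = 0.0857 in a two-sided exact permutation test, where 0.0286 is the smallest p that 4 against 4 libraries can give. The test pooled KO and WT libraries. As Atp1b3 rose with stimulation in both genotypes, the share alone cannot show a change of Atp1b1.

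Kcnn4 encodes the calcium-activated potassium channel of intermediate conductance, which lets potassium out when cytosolic calcium rises (chr7:24370263-24386690, plus strand). It was at 78.1 and 72.4 CPM in stimulated KO libraries against 56.9 and 51.6 CPM in KO libraries with PBS. In WT it was at 102 and 108 CPM after stimulation against 45.1 and 44.3 CPM with PBS. Stimulated libraries lay above PBS libraries in both genotypes, with the wider gap in WT. The response was 0.47 ± 0.08 log2 units in KO (1.39-fold, adjusted p = 0.00381) and 1.23 ± 0.08 in WT (2.35-fold, adjusted p = 4.36e-05), and both calls held when any 1 library was left out. The promoter of Kcnn4 holds the 1 motif match among the windows printed above.

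Kcnj2 encodes an inward rectifier channel that holds the resting potential of macrophages (chr11:111066164-111076821, plus strand). It was at 57.2 and 47.5 CPM in stimulated KO libraries against 30.5 and 37.0 CPM in KO libraries with PBS, and at 51.6 and 41.2 CPM in stimulated WT libraries against 20.5 and 24.6 CPM in WT libraries with PBS. The stimulated and PBS libraries did not overlap in either genotype. On the log2 scale Kcnj2 changed by 0.63 ± 0.17 in KO (adjusted p = 0.0237) and 1.04 ± 0.17 in WT (adjusted p = 0.00283). The KO call was lost without stimulated KO library 1 (adjusted p = 0.134) or KO PBS library 1 (adjusted p = 0.129).

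Kcna3 encodes a voltage-gated channel best known from T cells and also found in macrophages (chr3:107036169-107038070, plus strand). It was at 8.52 and 7.59 CPM in stimulated KO libraries against 1.35 and 0.801 CPM in KO libraries with PBS, 471 and 499 counts against 79 and 50. In WT it was at 9.88 and 3.39 CPM after stimulation against 3.07 and 1.20 CPM with PBS, and both WT groups held libraries far apart. The groups did not overlap in either genotype, but the lower stimulated WT library lay close to the higher PBS one. The log2 change of Kcna3 was 2.91 ± 0.64 in KO (adjusted p = 0.0106) and 1.63 ± 0.60 in WT (adjusted p = 0.0703). The KO call was lost without KO PBS library 2 (adjusted p = 0.0707), and in WT the change was 0.67 without stimulated library 1 and 2.46 (adjusted p = 0.046) without PBS library 1. WT also passed without stimulated library 2 (2.20, adjusted p = 0.0275), in DESeq2 (adjusted p = 0.0133) and with the replicate number as a block (adjusted p = 0.0167). The T cell markers Cd3e, Cd3d, Cd3g and Cd8a lay between 0 and 0.136 CPM in all libraries. Cd4, which made up most of that list's sum, was lower in stimulated libraries, at 5.10 to 6.58 CPM against 15.1 to 20.8 CPM with PBS.

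Kcnab2 encodes a cytoplasmic beta subunit that binds voltage-gated channels such as the product of Kcna3 (chr4:152390742-152477871, minus strand). It was at 150 and 123 CPM in stimulated KO libraries against 95.5 and 123 CPM in KO libraries with PBS, and the lower stimulated library lay just above the higher PBS one. In WT it was at 186 and 195 CPM after stimulation against 62.3 and 135 CPM with PBS, and the PBS libraries lay farther apart than their higher one from the stimulated libraries. Its log2 change was 0.32 ± 0.33 in KO (adjusted p = 0.485) and 0.95 ± 0.33 in WT (adjusted p = 0.0591). The WT value rested on both PBS libraries: it was 0.50 without library 1 (adjusted p = 0.0999) and 1.61 without library 2 (adjusted p = 0.00208). DESeq2 (adjusted p = 0.00568) and limma-voom (adjusted p = 0.0328) called the WT change. Nphp4, which overlaps Kcnab2 on the opposite strand, had 22 to 163 counts, against at least 4061 for Kcnab2.

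Kcnk13 encodes a tandem-pore-domain channel that in mouse microglia carries the resting potassium outflow (chr12:99964499-100062682, plus strand). It was at 38.0 and 37.8 CPM in stimulated KO libraries against 68.8 and 58.2 CPM in KO libraries with PBS. In WT it was at 41.7 and 47.5 CPM after stimulation against 61.7 and 54.2 CPM with PBS. Each stimulated library lay below each PBS library of its genotype. Kcnk13 changed by -0.74 ± 0.12 log2 units in KO (adjusted p = 0.00248), which held when any 1 library was left out, and -0.38 ± 0.12 in WT (adjusted p = 0.0396). In WT the call was lost when either stimulated KO library was left out, and without stimulated WT library 1 or WT PBS library 1 (adjusted p up to 0.202). It was also lost with no filter on low counts (0.053), with only the groups compared (0.0558) and with the replicate number as a block (0.0546).

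Kcnk6 encodes another tandem-pore-domain channel, one described in mouse macrophages as a path for the potassium loss that follows extracellular ATP (chr7:29221926-29232515, minus strand). It was at 50.1 and 52.1 CPM in stimulated KO libraries against 59.5 and 69.1 CPM in KO libraries with PBS, and at 45.2 and 43.4 CPM in stimulated WT libraries against 64.7 and 67.5 CPM in WT libraries with PBS. The stimulated libraries lay below the PBS libraries in both genotypes. Kcnk6 changed by -0.33 ± 0.09 log2 units in KO (adjusted p = 0.026) and -0.58 ± 0.09 in WT (adjusted p = 0.00241). The WT call held when any 1 library was left out, whereas the KO call needed both stimulated KO libraries, KO PBS library 2 and WT PBS library 2 (adjusted p up to 0.136 without 1 of them).

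**Figure D2:**
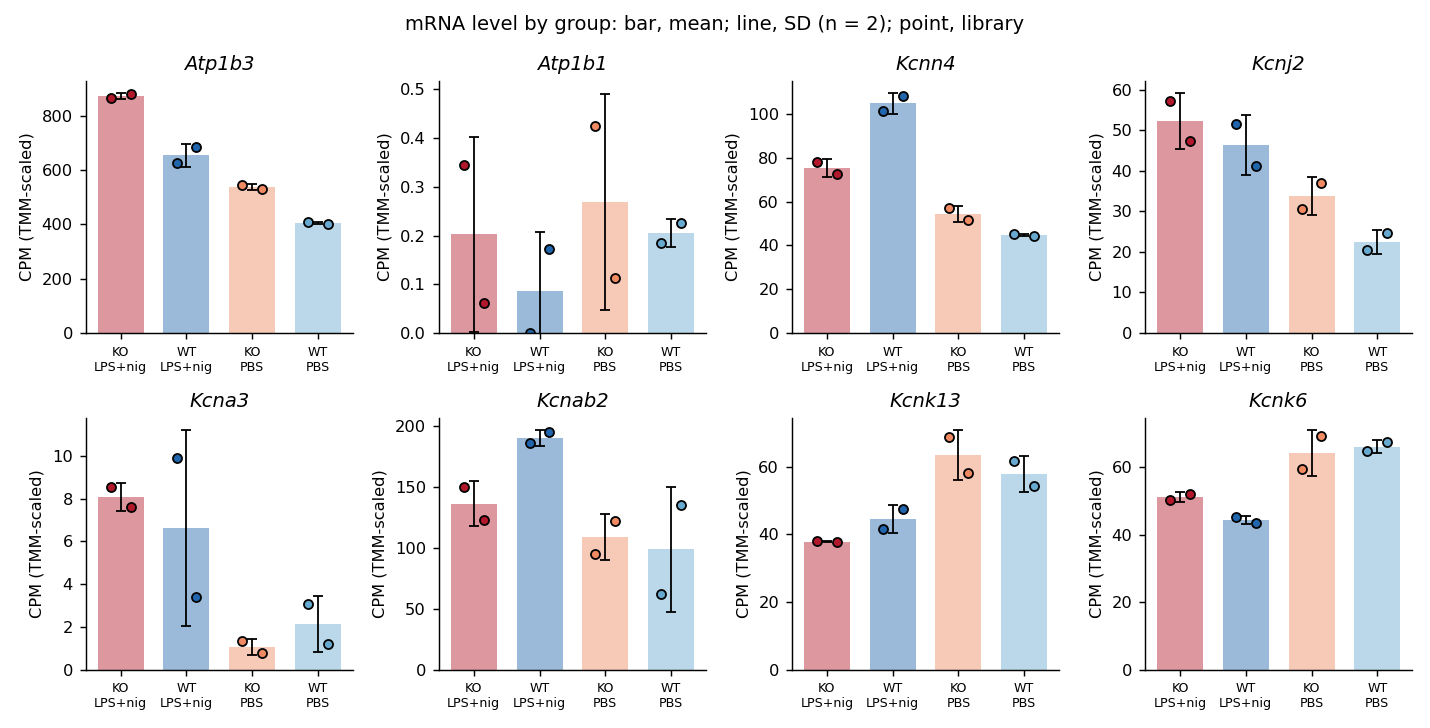
CPM of each member in the 4 groups (bar, mean of 2 libraries; line, SD, cut at 0 for Atp1b1; point, library; each panel has its own axis from 0). Atp1b3, Kcnn4 and Kcnj2 are higher in the stimulated groups, Kcnk13 and Kcnk6 are lower, and the libraries of a group lie far apart for Kcna3 and Kcnab2 in WT.

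The second comparison asked how KO differed from WT within each treatment. Atp1b3 was higher in KO under both treatments, and Kcnn4 was lower in KO after stimulation. After LPS and nigericin 1 of 8 members was higher and 1 lower, where 4.92% of all tested genes were called (2.91% higher and 2.01% lower). With PBS 1 of 8 was higher and 0 were lower, where 1.55% were called (1.2% higher and 0.355% lower). By unadjusted p under 0.05 with PBS, Kcnj2 and Kcnn4 would join Atp1b3, where 2690 of all 17470 tested genes had such a p. DESeq2 called Atp1b3 and Kcnj2 with PBS. The median log2 difference over the members was 0.19 after stimulation and 0.21 with PBS, beside -0.00 and 0 over all tested genes. With library size alone, the median of all tested genes moved to 0.13 after stimulation and the split to 1044 genes higher and 236 lower (508 and 352 with TMM factors).

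For Atp1b3, whose values per library are given above, both stimulated KO libraries exceeded both stimulated WT libraries, and the same was true with PBS. KO over WT gave a log2 difference of 0.41 ± 0.06 after stimulation (1.33-fold, adjusted p = 0.0182) and 0.41 ± 0.06 with PBS (1.33-fold, adjusted p = 0.0336). After stimulation the call needed both stimulated KO libraries (adjusted p = 0.111 and 0.116 without 1 of them). The PBS call was lost without either KO PBS, stimulated KO or WT PBS library (adjusted p up to 0.17), with only the groups compared (0.0817) and with the replicate number as a block (0.0528). Stromal markers differed in the same direction: 6 of 7 were higher in stimulated KO, where they summed to 303 to 339 CPM against 117 to 119 CPM in stimulated WT, and 2 of 7 were higher in KO with PBS, at 267 to 285 CPM against 170 to 191 CPM. B and plasma cell markers were at 32.7 to 35.9 CPM in stimulated KO against 6.51 to 8.14 CPM in stimulated WT, with 4 of 6 tested markers higher. With PBS they summed to 49.1 to 55.8 CPM in KO and 52.0 to 53.5 CPM in WT, with 2 of 6 higher in KO and 0 lower. There Ighg2b was at 18.5 and 17.6 CPM in KO against 0 and 0 in WT, and Ighm at 28.2 and 35.8 CPM against 51.5 and 53.0 CPM. The part of the stromal, B and plasma cell markers in the genotype differences was not tested.

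For Kcnn4, the stimulated KO libraries at 78.1 and 72.4 CPM lay below the stimulated WT libraries at 102 and 108 CPM, whereas with PBS the KO libraries at 56.9 and 51.6 CPM lay above the WT libraries at 45.1 and 44.3 CPM. The log2 difference was -0.48 ± 0.08 after stimulation (adjusted p = 0.0256) and 0.28 ± 0.08 with PBS (adjusted p = 0.179). The stimulated call held without either KO PBS library and was lost without any other library (adjusted p up to 0.163). It was also lost with library size alone (-0.34, adjusted p = 0.0556) and with only the groups compared (adjusted p = 0.0605).

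Among the other members, the log2 difference in stimulated KO was 0.17 ± 0.17 for Kcnj2, 0.28 ± 0.58 for Kcna3, -0.48 ± 0.33 for Kcnab2, -0.24 ± 0.12 for Kcnk13, 0.21 ± 0.09 for Kcnk6 and 1.19 ± 1.5 for Atp1b1 (adjusted p between 0.272 and 0.858). With PBS it was 0.59 ± 0.17 for Kcnj2 (adjusted p = 0.175), -0.99 ± 0.62 for Kcna3, 0.14 ± 0.33 for Kcnab2, 0.13 ± 0.12 for Kcnk13, -0.04 ± 0.09 for Kcnk6 and 0.39 ± 1.39 for Atp1b1. The missing calls do not show equal levels, since the errors for Kcna3, Kcnab2 and Atp1b1 are wide.

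**Figure D3:**
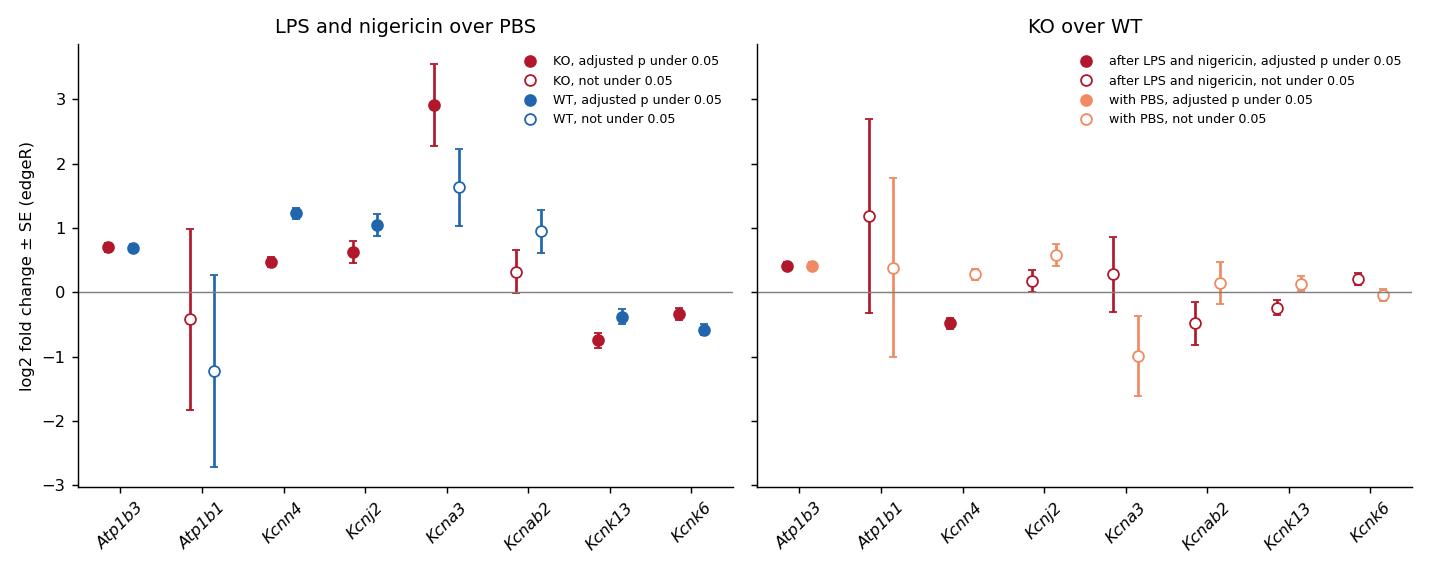
Log2 fold change with its SE for each member, on the left for LPS and nigericin over PBS (KO, then WT) and on the right for KO over WT (after LPS and nigericin, then with PBS); filled points have an adjusted p under 0.05. Atp1b3 shifts by nearly the same amount in both genotypes and under both treatments, while the Kcnn4 rise is 0.47 in KO and 1.23 in WT.

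The third comparison asked whether the response itself differed between the genotypes, as the KO response minus the WT response. Of the 8 members 0 passed in edgeR, where 0.498% of all tested genes were called. An unadjusted p under 0.05 was reached by 1 member, Kcnn4, and by 1872 of all 17470 tested genes. Kcnn4 had the smallest p of the members, with a difference of -0.76 ± 0.12 log2 units (adjusted p = 0.0607). DESeq2 called it (-0.75, adjusted p = 5.84e-05), as did edgeR on genes with at least 5 CPM in 2 libraries (-0.74, adjusted p = 0.0491), and over all 15 alternatives the value lay between -0.83 and -0.65 with adjusted p up to 0.202. Atp1b3 had a difference of 0.01 ± 0.09. The differences were -0.41 ± 0.24 for Kcnj2, -0.37 ± 0.17 for Kcnk13 and 0.25 ± 0.13 for Kcnk6. They were 1.28 ± 0.85 for Kcna3, -0.62 ± 0.47 for Kcnab2 and 0.80 ± 2.04 for Atp1b1.

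The partners of these genes were taken from 7 lists of potassium channel, pump and transport genes, with the members left out. The counts covered 125 such genes, and 43 were tested. In KO 6 rose and 8 fell with stimulation (median log2 change -0.23), and in WT 7 rose and 10 fell (median -0.11). The 14 called in KO are 32.6% of the 43 and the 17 called in WT 39.5%, near or below the 39.1% and 40.5% called over all tested genes, whose medians were -0.03 in KO and -0.01 in WT. Both list medians stayed the same with genes at 0 counts in a group set to 3 counts in all. Of the 43 tested partners 1 was higher in stimulated KO than in stimulated WT, 0 passed with PBS and 0 passed in the difference of responses. Over all tested genes the shares called were 4.92%, 1.55% and 0.498%. An unadjusted edgeR p under 0.05 was reached by 4 partners with PBS and 5 in the difference of responses. Between the stimulated genotypes it was reached by 6 partners higher in KO and 4 lower. Of all 17470 tested genes, 3470 reached it after stimulation, 2690 with PBS and 1872 in the difference of responses. DESeq2 made 3 calls after stimulation, among them Fxyd2 and Wnk1, and called Wnk2 with PBS and in the difference of responses, and limma-voom called 1 partner after stimulation, Kcnf1, and 0 in the other 2 comparisons.

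In the pump, 0 of 6 other tested genes rose and 3 fell in each genotype (among them Fxyd2 and Nkain1); 0 had an unadjusted p under 0.05 upwards, and DESeq2 and limma-voom also called 3. Over all tested genes 20.2% rose and 19% fell in KO, and 20.6% rose and 20% fell in WT, so that counts over lists this short are a description. Fxyd2, the gamma subunit that tunes the pump in kidney, fell to 7.60 and 7.73 CPM in stimulated KO, against 23.0 and 24.4 CPM in KO with PBS (-1.63 ± 0.10, adjusted p = 3.15e-05). In WT it fell to 5.31 and 5.44 CPM, against 19.3 and 17.5 CPM (-1.77 ± 0.10, adjusted p = 2.22e-05). It was the 1 partner called between genotypes, higher in stimulated KO by 0.51 ± 0.10 (adjusted p = 0.0411), a call lost in limma-voom (0.0788), with no filter (0.0642), with only the groups compared (0.113), with the replicate block (0.0633) and without any 1 library (up to 0.174).

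Among 4 other tested inward rectifiers, 0 rose and 2 fell in KO (Kcnj10 and Kcnj16). In WT 0 rose and 3 fell (Kcnj10, Kcnj16 and Kcnj9). DESeq2 and limma-voom gave the same counts from the same libraries. Kcnj16 and Kcnj9 had mean levels under 5 CPM in every group, and 0 counts in the stimulated libraries of these comparisons. Over all tested genes 20.2% rose and 19% fell in KO, and 20.6% rose and 20% fell in WT. Counts over the short lists given here are a description. Kcnj10, known for potassium buffering in glia, fell to 1.57 ± 0.180 CPM in stimulated KO, against 6.55 ± 0.675 CPM in KO with PBS (-2.06 ± 0.20, adjusted p = 2.53e-04). In WT it fell to 1.53 ± 0.0224 CPM, against 6.27 ± 1.15 CPM (-2.03 ± 0.20, adjusted p = 2.73e-04). Of 2 other tandem-pore channels 0 passed in edgeR or DESeq2 in either genotype, with 1 in KO at an unadjusted p under 0.05 and called by limma-voom. The 1 other tested calcium- or sodium-activated channel passed in none of these tests. Of 8 other voltage-gated channels 2 rose in each genotype (Kcnd1 and Kcnf1), and of 6 auxiliary subunits 1 rose in each (Kcnab1). All of these had mean levels under 5 CPM in every group. In KO, 4 of the 8 channels had an unadjusted p under 0.05 upwards, DESeq2 called 2 and limma-voom called 3. Of the 6 auxiliary subunits in KO, 2 had such a p upwards, and DESeq2 and limma-voom each called 2. In WT these counts equalled the edgeR calls.

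Of 16 genes of other potassium transport and volume regulation, 3 rose and 3 fell in KO and 4 rose and 4 fell in WT, 37.5% of the list in KO and 50.0% in WT beside 39.1% and 40.5% over all tested genes. Lrrc8c, a subunit of the volume-regulated anion channel, rose to 89.4 and 93.8 CPM in stimulated KO, against 22.1 and 17.8 CPM in KO with PBS (2.20 ± 0.12, adjusted p = 1.40e-05). In WT it rose to 72.7 and 74.7 CPM, against 17.4 and 16.4 CPM (2.12 ± 0.12, adjusted p = 1.59e-05). Lrrc8a, the subunit this channel cannot work without, fell in KO, at 18.7 and 18.9 CPM in stimulated KO against 36.5 and 44.4 CPM in KO with PBS (-1.11 ± 0.22, adjusted p = 0.00658). In WT it was at 28.2 and 18.7 CPM against 41.4 and 32.0 CPM (-0.65 ± 0.22, adjusted p = 0.0507), and 6 of 16 alternatives called it, DESeq2 and limma-voom among them. The WT value was -0.97 without stimulated library 1 (adjusted p = 0.0142), -0.39 without stimulated library 2 and -0.45 without PBS library 1, and the difference between the genotypes' responses of Lrrc8a was -0.46 ± 0.30 (adjusted p = 0.654). Lrrc8b fell in WT (-0.60 ± 0.18, adjusted p = 0.0329) and was at -0.23 ± 0.18 in KO (adjusted p = 0.348).

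Wnk1, a kinase that senses cell volume and chloride, fell by 0.67 ± 0.11 on the log2 scale in KO (adjusted p = 0.00323) and by 0.39 ± 0.11 in WT (adjusted p = 0.0296). Its relative Wnk2 had 355 and 367 counts in stimulated KO against 37 and 31 in KO with PBS, and 441 and 355 counts in stimulated WT against 0 and 8 in WT with PBS; both rises passed (adjusted p = 0.003 in KO and 3.73e-04 in WT). The potassium-chloride cotransporter gene Slc12a4 rose by 0.57 ± 0.07 in KO (adjusted p = 6.03e-04) and by 0.20 ± 0.07 in WT (adjusted p = 0.0468), where library size alone gave 0.02 (adjusted p = 0.863). The sodium-potassium-chloride cotransporter gene Slc12a2 was at -0.57 ± 0.13 in KO (adjusted p = 0.0133) and -0.71 ± 0.13 in WT (adjusted p = 0.00502). Slc12a9 rose in WT by 0.35 ± 0.08 (adjusted p = 0.00997) and was at 0.18 ± 0.08 in KO (adjusted p = 0.105). Tmem175, the potassium channel of endosomes and lysosomes, fell in WT (-0.55 ± 0.15, adjusted p = 0.023) and was at -0.38 ± 0.15 in KO (adjusted p = 0.0828). Of 16 alternatives, 4 kept the WT call of Slc12a4, 10 that of Lrrc8b, 11 that of Wnk1, 13 that of Slc12a9 and 14 that of Tmem175, and 14 kept the KO call of Slc12a2.

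**Figure D4:**
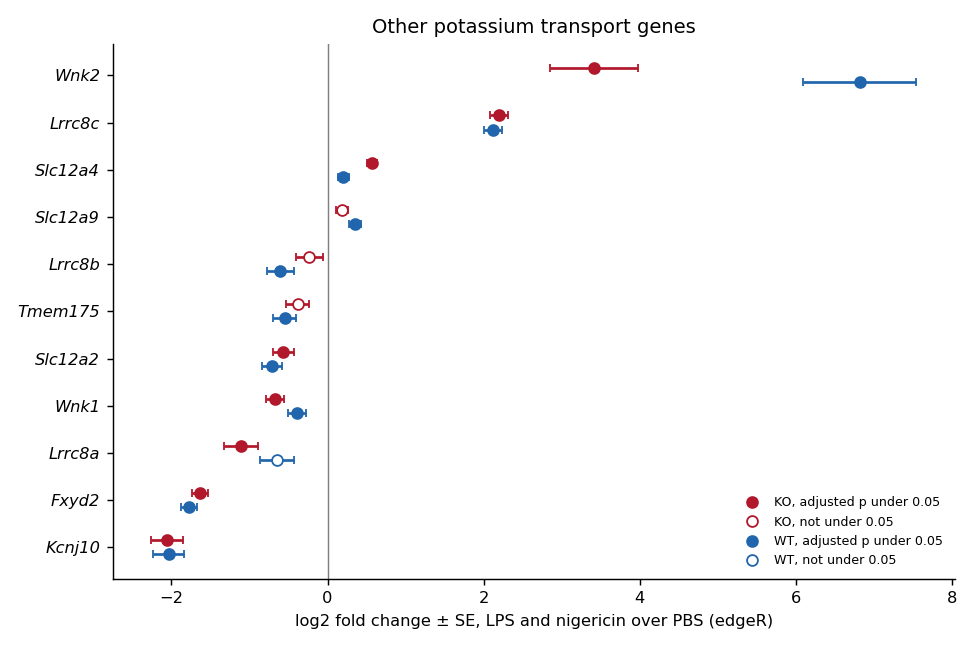
Log2 fold change with its SE of 11 partner genes for LPS and nigericin over PBS, KO above WT for each gene; filled points have an adjusted p under 0.05. Lrrc8c and Wnk2 rise in both genotypes, and Kcnj10 and Fxyd2 fall in both.

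The genes whose log2 CPM followed each member most closely over the 8 libraries were sought among 8780 tested genes. The highest Pearson correlations were 0.992 with Clptm1 and 0.990 with Crcp for Kcnn4, 0.998 with Iah1 and 0.980 with Grwd1 for Kcnj2, and 0.985 with Mbip and 0.985 with Rbl2 for Kcnk6. For Kcnk13 they were 0.991 with Tmem251 and 0.987 with Zfp512, for Kcna3 0.983 with Nol6 and 0.982 with Smpd4, and for Kcnab2 0.948 with Snhg1 and 0.942 with Micu2. Atp1b3 was followed most closely by Ptp4a3 (0.996) and Wfdc17 (0.995). Ptp4a3 was at 25.2 and 26.9 CPM in stimulated KO and 10.9 and 14.2 CPM in stimulated WT, against 8.34 and 8.57 CPM in KO with PBS and 5.03 and 4.71 CPM in WT with PBS. Atp1b1 reached 0.926 with Rpl17-ps8 and 0.889 with Uqcrh, on few counts. The points share libraries and the split between stimulated and PBS cells, which sets much of each correlation, so these values are a description.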

How the data were processed

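Gene counts of 8 libraries were used as deposited by the authors, 1 whole-number count per gene and library. Trimmomatic, Bowtie2 and edgeR with the mouse genome mm10 are named, without versions, per the submitters' processing notes. How reads were counted, with which annotation and strand setting, is not given in the sources used here. Samples were RNA of bone marrow-derived macrophages extracted with Trizol, per the labels' protocols. The labels of the samples give 3 h of nigericin, whereas the series text gives 1 h or 3 h.

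Symbols, coordinates (GRCm38) and exon lengths came from GENCODE M21, which held 55141 of 55401 gene IDs. Genes were kept by filterByExpr (minimum count 10, minimum total 15), and 17470 were tested. One model with a mean for each group and TMM factors (0.888 to 1.068) took in the 8 libraries, leaving 4 residual degrees of freedom. Each contrast was tested by quasi-likelihood in edgeR 4.0.16 (R 4.3.3), with Benjamini-Hochberg adjustment at 0.05. A standard error is the log2 fold change, without shrinkage, divided by the square root of F. The fit was tested on simulated counts. Libraries of a group differed by 42.2 to 88.5 times sampling noise (chi-square per degree of freedom), so none repeats another. Members and lists were chosen with earlier results of these data known. Named partners were called genes with at least 5 CPM in 1 or more groups, and some of these are not reported here. Alternatives were DESeq2 1.42.0, limma-voom (limma 3.58.1), other scalings and filters, only the groups compared, a replicate block and each library left out. Counting error limits the precision of genes with few counts, such as Atp1b1.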

Additional observations from a re-analysis of the deposited data

How the results depend on the processing

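Under 7 or 8 alternatives beside leaving out a library, no member changed direction in any of the 5 comparisons, and the member calls for stimulation stayed within 1.5 times the counts of 6 in KO and 5 in WT. Members called between genotypes with PBS (1) numbered 0 with only the groups compared, 0 with the replicate block and 2 in DESeq2, and 0 to 1 without 1 library. After stimulation (2) they numbered 1 with library size alone, 1 with only the groups compared and 0 to 2 without 1 library. In the difference of responses (0) they numbered 1 in DESeq2 and 1 with the filter of 5 CPM in 2 libraries. Partner genes called with stimulation in WT (17) numbered 10 to 18 without 1 library, with 11 and 10 without WT PBS library 1 and 2, and in KO (14) they numbered 9 with the filter of 5 CPM, which left 18 to test. Partners called between genotypes after stimulation (1) numbered 0 with no filter, 2 with the filter of 5 CPM, 0 with the replicate block, 0 with only the groups compared, 3 in DESeq2 and 0 without any of 6 libraries. With PBS (0) they numbered 1 in DESeq2 and 0 to 1 without 1 library, and in the difference of responses (0) 1 in DESeq2 and 0 to 1 without 1 library. The cause of these shifts was not tested.

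Directions turned without 1 library only for values that were not called. The log2 change ranged from -0.15 to 0.064 for Kcnk6 between genotypes with PBS, from -0.31 to 0.80 for Kcnab2 with PBS, from -0.28 to 1.25 for Kcna3 between genotypes after stimulation and from -0.064 to 0.095 for Atp1b3 in the difference of responses. For Atp1b1 it ranged from -2.11 to 0.83 with stimulation in KO, from -0.86 to 1.05 between genotypes with PBS, from -0.50 to 6.64 after stimulation and from -0.89 to 6.27 in the difference of responses. The Atp1b1 share kept its sign, from -0.032 to -0.018 percentage points without 1 library. Whether the replicate numbers pair the libraries is not stated. Deviations of same-numbered libraries correlated between -0.015 and 0.101 over 6 pairs of groups, which cannot show that pairing is absent. Beside the calls named above, the replicate block left member calls as they were except in WT, where Kcna3 was gained and Kcnk13 lost.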

Other observations

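Several potassium channel genes at under 5 CPM, chosen after their values were seen, passed edgeR's test in both genotypes. Kcnab1, another cytoplasmic beta subunit of voltage-gated channels, was higher with LPS and nigericin by 4.13 ± 0.52 log2 units in KO (adjusted p = 8.29e-04) and 2.75 ± 0.48 in WT (adjusted p = 0.00371). Kcnd1, a voltage-gated channel of the A type, was higher by 3.59 ± 0.48 in KO (adjusted p = 0.00109) and 4.11 ± 0.52 in WT (adjusted p = 8.29e-04). Kcnf1, a silent subunit that alters other voltage-gated channels, had 263 counts in the stimulated KO libraries together and 0 in KO with PBS. In WT Kcnf1 had 64 counts in the stimulated libraries and 0 with PBS. With the group at 0 set to 3 counts in all, the lower bound on its rise was 87.8-fold in KO and 24.8-fold in WT. The inward rectifier gene Kcnj16 had 0 counts in the stimulated libraries of both genotypes, against 56 in KO with PBS and 42 in WT with PBS. By the same setting the lower bound on its fall was 18.6-fold in KO and 12.0-fold in WT. These bounds leave out the error of the group that had counts. Nkain1, which encodes a protein that binds the pump's beta-1 subunit, was lower by 2.29 ± 0.24 log2 units in KO and 2.34 ± 0.25 in WT. These genes are rare in the libraries, and their cell of origin was not tested.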
